A study of Mus musculus with 8 samples.

Results

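The CD3 chains Cd3d, Cd3e, Cd3g and Cd247, the kinases Lck, Fyn and Zap70 and the adaptors Lat and Lcp2 were followed through the N6-methyladenosine (m6A) peak lists of mouse primary T cells. These 9 genes were taken by gene name, out of 12413 genes with a peak in at least 1 of the 2 lists. The cells had been treated for 24 h with an agent named only as PTC in the labels, or were control cells of the same 24 h. Both groups were primary T cells of mouse in culture medium with serum. The labels do not state the strain, the age of the animals, the tissue of origin, any T cell stimulus or whether samples were separate animals. Each condition had 2 m6A immunoprecipitates and 2 inputs, 8 samples in all, of which 1 peak list per condition was analysed here. The PTC list held 23368 peaks in 10859 genes and the control list 29586 peaks in 11390 genes. With 1 list per condition there was no replicate check, so no test between conditions was made and the values of the lists are set side by side.

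The antigen receptor of a T cell has no signalling tail of its own and is carried by the CD3 chains, whose cytoplasmic tails hold the tyrosine motifs that are phosphorylated when antigen is bound. Lck and Fyn, kinases of the Src family, phosphorylate these motifs, Zap70 docks on them and phosphorylates the membrane adaptor Lat and the cytosolic adaptor Lcp2 (SLP-76), and these recruit the enzymes of calcium and Ras signalling. m6A is a methylated adenosine of mRNA that is placed mostly in the motif DRACH (D stands for any base but C, R for a purine and H for any base but G), often near stop codons and in 3' UTRs, and that can change the stability and translation of the mRNA. An antibody against m6A enriches fragments that hold it, and a peak is a stretch where the immunoprecipitate stands above the input.

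All 9 genes were listed in both conditions, with 21 PTC peaks and 27 control peaks. Of all genes with a peak in either list, 79.2% were in both, 8.24% in the PTC list only and 12.5% in the control list only. Of the annotated protein-coding genes, 41.2% had a PTC peak and 42.6% a control peak. RNA levels are not given in the lists, and in bulk RNA fewer cells of a type and less RNA per cell cannot be told apart. The differences between the lists lay in where the peaks ended, how many there were and how the authors' caller scored them. Cd3e had the largest share of peak bases outside coding transcripts in both lists. Exons of noncoding transcripts alone held all of its PTC peak bases and 78.9% of its control peak bases. The next largest shares were 10.9% for Lck in the PTC list and 35.8% for Cd3g in the control list. Zap70 was the gene whose strongest peak was at another place in each list.

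The motif GGACT, the form of DRACH best known as an m6A site, occurred 17 times in the 9 coding transcripts used here as references. Of these sites 7 lay in peaks of both lists, 1 in a PTC peak only, 4 in control peaks only and 5 in no peak. The same shares over all listed genes are not given here, so these counts cannot be read as particular to the 9 genes. The reference transcripts were chosen for the peak bases they hold, which favours sites under peaks, and the control list has more peaks than the PTC list. The sites under peaks are shown because they are the places in these reference transcripts where a peak and the motif coincide. A GGACT in peak bases outside them, such as 1 in the third control peak of Cd247, was not counted among the 17. Each line below gives 21 bases of the transcript, 5' to 3', with the motif in capitals, the GRCm38 position and the strand. The sequences are from the GENCODE M21 transcripts, and the 1 site under a peak that crosses an exon junction is left out. A match describes letters under a peak and does not show which base was methylated.
Cd247, 3' UTR, peaks of both lists, chr1:165861241-165861261, plus strand: tcatccctGGACTctctaaag
Lck, 3' UTR, peaks of both lists, chr4:129548692-129548712, minus strand: gcacacatGGACTctgactct
Lat, 3' UTR, peaks of both lists, chr7:126364006-126364026, minus strand: ctgaaactGGACTtgctgggg
Fyn, 5' UTR, peaks of both lists, chr10:39369970-39369990, plus strand: cgtttcgaGGACTccccgggc
Fyn, coding sequence, peaks of both lists, chr10:39563817-39563837, plus strand: tgcccacaGGACTgcccgatc
Fyn, coding sequence, peaks of both lists, chr10:39563913-39563933, plus strand: ttcctggaGGACTactttacg
Fyn, 3' UTR, peaks of both lists, chr10:39564656-39564676, plus strand: ctccatttGGACTgcactttt
Cd3g, 5' UTR, PTC peak only, chr9:44980348-44980368, minus strand: tggctaagGGACTctcaatac
Lcp2, coding sequence, control peak only, chr11:34089655-34089675, plus strand: tgggcactGGACTtcgaggaa
Fyn, coding sequence, control peak only, chr10:39511919-39511939, plus strand: ggggccagGGACTcaccgtct
Fyn, coding sequence, control peak only, chr10:39533882-39533902, plus strand: tggggaatGGACTaatttgca

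Fyn carried 6 of the 17 sites and had 4 of them in peaks of both lists. In Cd247, Lck and Lat the single GGACT of the transcript lay in the 3' UTR, 184, 98 and 35 nt past the first base of the stop codon, and was under a peak in both conditions. The sites without a peak were the 3 of Zap70, 1 of the 3 of Lcp2 and the second of Cd3g, which lies 13 nt past its stop codon. Cd3d and Cd3e have no GGACT in their reference transcripts.

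**Figure D1:**
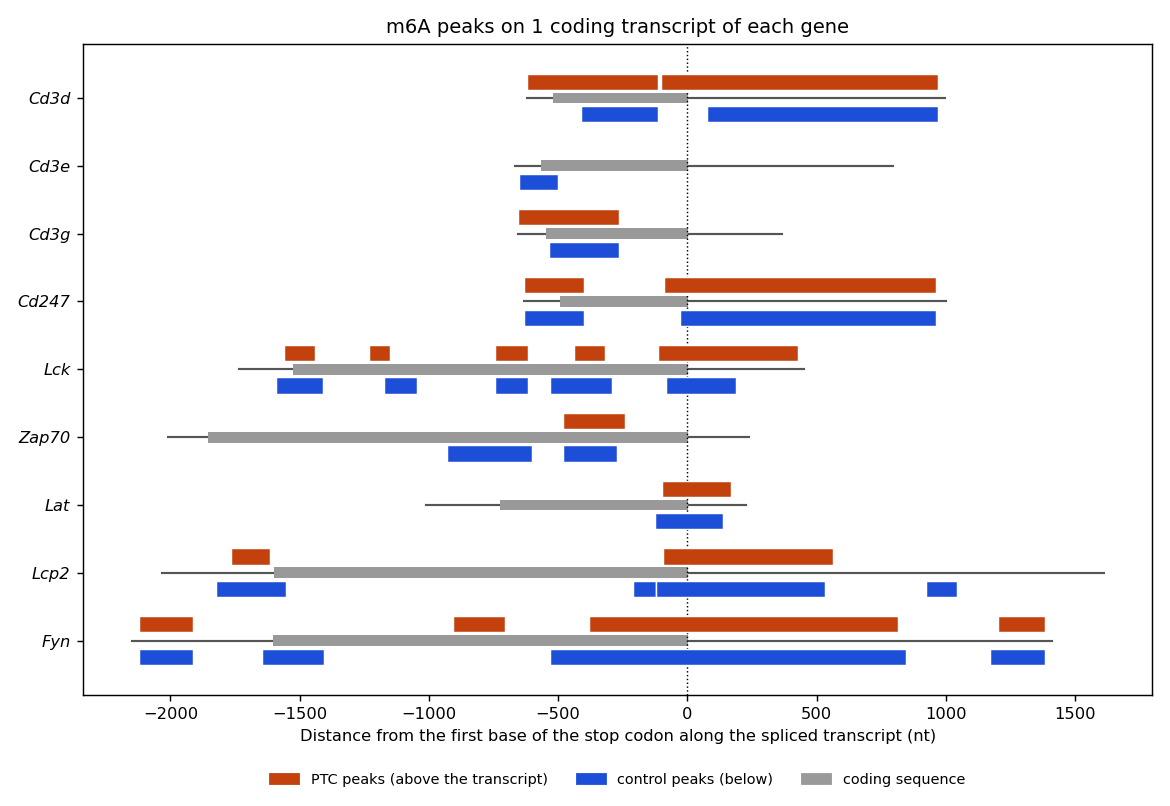
Peaks of the 9 genes drawn on 1 coding transcript each, with the distance from the stop codon in nt along the spliced transcript on the x axis; PTC peaks are red bars above the line, control peaks blue bars below it, the thin line is the transcript and the grey bar its coding sequence. Peaks with no base on that transcript are not drawn, among them the strongest Cd3e peak of each list. Cd3d and Cd247 have long peaks over the 3' UTR in both lists, Cd3e has no PTC peak on its coding transcript, and Zap70 has peaks in the coding sequence alone.

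The CD3 chains differed from each other in how much of the mRNA lay under peaks. Cd3d, the CD3 delta chain (chr9:44981786-44987339, plus strand), was the most fully covered of the 9 genes in the PTC list, and Cd3e, the CD3 epsilon chain, the least covered in each list. Of the 1617 nt of transcript Cd3d-201, 97.5% lay under PTC peaks and 73.7% under control peaks. All 1221 nt of Cd3d under control peaks were also under PTC peaks, which covered a further 416 nt. The PTC peak nearest the 5' end (chr9:44981786-44985882) began at the annotated start of the transcript and had a −log10 FDR of 37.7 and a fold enrichment of 2.17. Fold enrichment is the authors' linear ratio of signal over input for a peak, and −log10 FDR is their false discovery rate on a log scale, where a higher value is a stronger call. The control peak there (chr9:44985023-44985852) began 208 nt into the transcript, with a fold of 2.04 and a −log10 FDR of 31.0. Each list had a second Cd3d peak that ran over the 3' UTR to the same end. It covered 1071 nt in the PTC list, at a fold of 4.08 and a −log10 FDR of 23.7. The control peak covered 893 nt of the same exon, at a fold of 3.23 and a −log10 FDR of 14.1. With no GGACT, this transcript still holds 39 DRACH motifs.

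Cd3e (chr9:44998740-45009627, minus strand) had no PTC peak on its coding transcript Cd3e-201. Both PTC peaks, 511 nt in all, lay in an exon that the annotation gives only to Cd3e-202, a transcript that keeps an intron. The stronger of them (chr9:45003556-45003945) had a fold of 3.20 and a −log10 FDR of 10.6, and the weaker a fold of 3.39 and a −log10 FDR of 2.53. In the control list 570 of 722 nt lay outside coding transcripts, and the strongest peak (chr9:45003706-45004125) had a fold of 7.10 and a −log10 FDR of 3.93. That control peak shared 240 nt with the stronger PTC peak. A control peak over the start of Cd3e-201 (fold 1.85, −log10 FDR 3.87) and a second one in the retained intron (fold 3.10, −log10 FDR 2.01) had no PTC peak on them. The strongest peak had its midpoint outside coding transcripts in 2.35% of the protein-coding genes of the PTC list and in 3.02% of those of the control list. The position of the strongest Cd3e peak is thus uncommon in either list. In the control list its −log10 FDR of 3.93 was close to the 3.87 of the peak over the start of Cd3e-201, so which is strongest there is nearly a tie. The 3' UTR and stop codon of Cd3e were under no peak.

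Cd3g, the CD3 gamma chain (chr9:44969572-44980431, minus strand), had 1 PTC peak and 2 control peaks. Its PTC peak (chr9:44974190-44980431, 391 nt of 3 exons) began at the annotated start of the transcript and included the 5' UTR with the GGACT shown above. It had a fold of 4.37, the highest of the 21 PTC peaks, and a −log10 FDR of 18.5. The control peak ended at the same base but began 120 nt into the transcript, past the GGACT, and had a fold of 1.42 and a −log10 FDR of 6.10. The other control peak (chr9:44972594-44972744, fold 5.23, −log10 FDR 3.62) lay in an exon of the intron-retaining transcript Cd3g-202 and had no PTC peak on it. The PTC peaks of Cd3d and Cd3g thus both reached the 5' end of the mRNA where the control peaks did not. Among all 9 genes, 3 of 21 PTC peaks and 1 of 27 control peaks began at an annotated start, a count made after the values were seen, beside 1.94% of PTC peaks and 1.91% of control peaks of all protein-coding genes.

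Cd247, the CD3 zeta chain (chr1:165788681-165877277, plus strand), which holds more tyrosine motifs than the other CD3 chains, had the strongest calls of the 9 genes. Its strongest peak covered the last exon of transcript Cd247-201, including the stop codon and 957 nt of the 3' UTR, in both lists. This peak (chr1:165859799-165862026, 1049 nt) had a fold of 2.60 and a −log10 FDR of 97.3 in the PTC list, rank 818 of 10859 genes by strongest peak. In the control list (chr1:165861038-165862026, 989 nt) it had a fold of 2.99 and a −log10 FDR of 95.3, rank 495 of 11390 genes. All 989 nt of the control peak were within the PTC peak. A peak at the 5' end of Cd247 had identical ends in the lists, with a fold of 1.92 and a −log10 FDR of 14.6 for PTC and a fold of 2.12 and a −log10 FDR of 14.8 for control. It shares 206 nt with Gm16565, a noncoding gene on the same strand that has peaks of its own there, so the reads of these genes cannot be told apart. The Gm16565 peak had a fold of 1.80 and a −log10 FDR of 11.9 for PTC and a fold of 16.4 and a −log10 FDR of 17.7 for control.

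The third Cd247 peak lay in the 3' UTR of the isoform Cd247-202 and is uncertain. Pou2f1, the gene of a transcription factor on the opposite strand, has a peak at almost the same bases, and whether the counting used strand is not stated in the sources at hand. In the PTC list the Cd247 peak had a fold of 3.09 and a −log10 FDR of 7.44, and the Pou2f1 peak a fold of 3.05 and a −log10 FDR of 7.19, with 241 nt shared. In the control list the Cd247 peak had a fold of 3.15 and a −log10 FDR of 3.91, and the Pou2f1 peak a fold of 2.85 and a −log10 FDR of 3.87, with 360 nt shared. The control list had 1 more Cd247 peak (fold 5.98, −log10 FDR 3.59), of which 159 of 181 nt lay in a processed transcript.

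Among the kinases, Lck (chr4:129548344-129573641, minus strand), which binds the CD4 and CD8 coreceptors, had 5 peaks in each list, and each PTC peak overlapped 1 control peak. The strongest was over the stop codon and the 3' UTR in the last exon. In the PTC list it covered 539 nt (chr4:129548374-129548912) with a fold of 1.60 and a −log10 FDR of 35.7. The control peak covered 270 nt (chr4:129548613-129548882), all within the PTC peak, with a fold of 1.38 and a −log10 FDR of 18.5. Over the other 4 Lck peaks, in coding exons or in exons extended by retained introns, −log10 FDR was between 2.19 and 3.68 in the PTC list and between 3.37 and 17.6 in the control list. Lck folds stayed low throughout, from 1.33 to 1.82 in the PTC list and from 1.38 to 2.23 in the control list. In Lck 10.9% of the bases under PTC peaks and 23.2% of those under control peaks lay only in noncoding transcripts, which keep introns. In the control list 11 nt of the peak nearest the 5' end also lie in Mir8119.

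Fyn (chr10:39368855-39565381, plus strand), the other Src family kinase of T cells, had 4 peaks in each list, and 3 of the PTC peaks overlapped control peaks. Its main peak ran from the coding exons 12 to 14 in the PTC list, and 11 to 14 in the control list, through the stop codon into the 3' UTR. The PTC peak (chr10:39533919-39564783) covered 1196 nt with a fold of 3.09 and a −log10 FDR of 85.1, and held 3 GGACT. The control peak (chr10:39533672-39564813) covered 1375 nt, all 1196 nt of the PTC peak included, with a fold of 4.74 and a −log10 FDR of 40.7, and held 4 GGACT. These were the widest peaks of the 9 genes in each list. A 5' UTR peak of 210 nt had identical ends in the lists, with a fold of 2.89 and a −log10 FDR of 8.55 for PTC and a fold of 2.73 and a −log10 FDR of 8.03 for control. A peak near the end of the 3' UTR had a fold of 3.14 and a −log10 FDR of 3.30 for PTC and a fold of 4.86 and a −log10 FDR of 4.10 for control.

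The remaining Fyn peak lay at another place in each list. In the PTC list it spanned coding exons 9 and 10 of Fyn-201 (chr10:39529592-39532059, fold 1.98, −log10 FDR 6.23), and in the control list exons 3 and 4, across the start codon (chr10:39455103-39511945, fold 1.77, −log10 FDR 5.38). Splicing of Fyn is known to give a T cell form and a brain form that differ in 1 coding exon. Exon 9 of Fyn-201 holds 156 nt of the PTC peak and is shared by Fyn-204, Fyn-205 and Fyn-207 but not by Fyn-202, while 10 nt of the same peak are in an exon of Fyn-202 that Fyn-201 lacks.

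Zap70 (chr1:36761798-36782818, plus strand), the kinase that docks on phosphorylated CD3 tails, had the weakest strongest peak of the 9 genes in the PTC list. Its peaks lay in coding exons, with no base in a UTR in either list. The PTC peak (chr1:36780923-36781251) covered 240 nt of exons 10 and 11 of 13, with a fold of 1.83 and a −log10 FDR of 5.00, rank 8231 of 10859 genes. The control list had a peak there too, 211 nt with a fold of 1.49 and a −log10 FDR of 2.73. Its stronger peak was in exons 8 and 9 (chr1:36779158-36779859, 330 nt) with a fold of 1.98 and a −log10 FDR of 8.16, rank 6785 of 11390 genes, and no PTC peak touched it. The peak that the lists share holds no DRACH motif on the transcript strand, and the sequence is shown because of that. Peaks of 200 to 300 nt without DRACH were 1.27% of such peaks in the PTC list and 1.62% in the control list. Capitals mark each AAC or GAC, the core of DRACH, 4 in the exon 10 block and 2 in the exon 11 block, where the base before or after it breaks the motif.
Zap70 exon 10, chr1:36780923-36781029, plus strand, GRCm38: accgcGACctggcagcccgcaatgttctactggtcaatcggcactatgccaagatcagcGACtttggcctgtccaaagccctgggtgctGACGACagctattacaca
Zap70 exon 11, chr1:36781119-36781251, plus strand, GRCm38: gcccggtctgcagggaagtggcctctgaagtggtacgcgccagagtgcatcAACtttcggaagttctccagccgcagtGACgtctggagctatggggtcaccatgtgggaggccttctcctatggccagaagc

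Of the adaptors, Lat (chr7:126363824-126369570, minus strand), the membrane scaffold that Zap70 phosphorylates, had 1 peak in each list at the stop codon. The PTC peak (chr7:126363883-126364400, 267 nt) was centred 35 nt past the first base of the stop codon, with a fold of 2.15 and a −log10 FDR of 23.6. The control peak (chr7:126363913-126364429, 266 nt) was centred 5 nt past it, with a fold of 1.60 and a −log10 FDR of 8.68. They shared 237 nt, which included the GGACT of the 3' UTR. This was the closest placement to a stop codon among the 9 genes.

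Lcp2 (chr11:34046920-34092295, plus strand), the adaptor that joins Lat to Vav, had 2 PTC peaks and 4 control peaks. Its strongest peak was in the 5' UTR in both lists. The PTC peak there (chr11:34047189-34047339, 151 nt) had a fold of 2.09 and a −log10 FDR of 11.0. It lay wholly within the control peak (chr11:34047129-34047399, 271 nt), which had a fold of 3.89 and a −log10 FDR of 25.1. A peak over the stop codon and 3' UTR was 659 nt wide in each list and shared 629 nt, with a fold of 2.45 and a −log10 FDR of 8.35 for PTC and a fold of 2.11 and a −log10 FDR of 21.6 for control. The next GGACT of the transcript crosses an exon junction, and its A lies in this control peak but outside the PTC peak. The other control peaks had no PTC peak on them. One was at the end of the coding sequence (fold 1.75, −log10 FDR 3.91) and held the Lcp2 GGACT shown above, and the other was in the 3' UTR (fold 2.22, −log10 FDR 3.37) and shares 41 nt with 4930469K13Rik on the opposite strand.

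**Figure D2:**
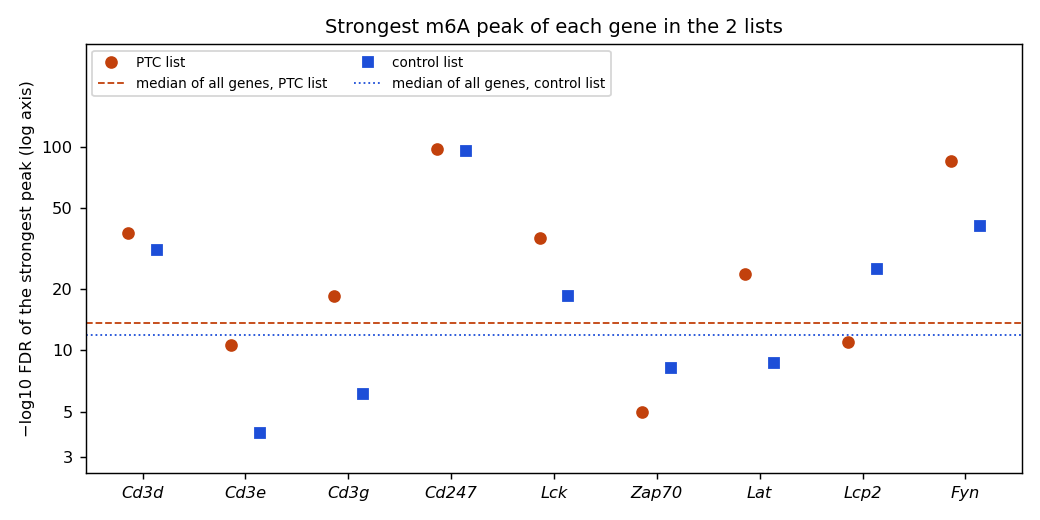
−log10 FDR of the strongest peak of each gene on a log axis, with the PTC list as red circles left of the control list as blue squares; the lines mark the median over all listed genes, 13.6 for PTC (dashed) and 11.9 for control (dotted). Cd247 and Fyn are the highest in both lists, and Cd3e, Zap70 and Lcp2 are below the PTC line.

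Ordered by the strongest peak, the PTC list ran Cd247, Fyn, Cd3d, Lck, Lat, Cd3g, Lcp2, Cd3e and Zap70, and the control list Cd247, Fyn, Cd3d, Lcp2, Lck, Lat, Zap70, Cd3g and Cd3e. The same 3 genes led in each. The strongest peak was above the median of all listed genes in 6 of 9 genes for PTC and in 5 of 9 for control. FDR and fold depend on the depth and input of each list, which are not given per sample, so a higher value in 1 list is not a measured change of methylation.

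Fold enrichment of these genes was low beside the lists as a whole. The median fold was 2.17 in the PTC peaks of the 9 genes and 2.17 in their control peaks, while over all peaks it was 3.66 in the PTC list and 3.65 in the control list. Only 2 of 21 PTC peaks, in Cd3d and Cd3g, and 6 of 27 control peaks were above the median of their list. Folds below 2 were held by 8 of 21 PTC peaks (38.1%) and 10 of 27 control peaks (37.0%), beside 13.0% of all PTC peaks and 11.6% of all control peaks. Folds of at least 4 were held by 2 PTC peaks and 5 control peaks, beside 45.2% of all PTC peaks and 45.0% of all control peaks. At that fold 1 of the 9 genes, Cd3g, was in both lists, Cd3d in the PTC list only, Cd3e, Cd247 and Fyn in the control list only and 4 in neither. The Cd3g peaks of that fold did not overlap: the PTC peak was at the 5' end and the control peak in the exon of Cd3g-202. Of all genes with such a peak 59.4% were in both lists, 16.0% in the PTC list only and 24.6% in the control list only. The calls were not weak in the same way: −log10 FDR was at least 5 in 15 of 21 PTC peaks (71.4%, all peaks 59.8%) and in 16 of 27 control peaks (59.3%, all peaks 53.4%). At that FDR 8 of the 9 genes were in both lists and Cd3e in the PTC list only, beside 79.5% of all such genes in both and 9.86% in the PTC list only. The median −log10 FDR of the 9 genes was 8.55 for PTC and 6.72 for control, beside 6.61 over all PTC peaks and 5.47 over all control peaks.

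**Figure D3:**
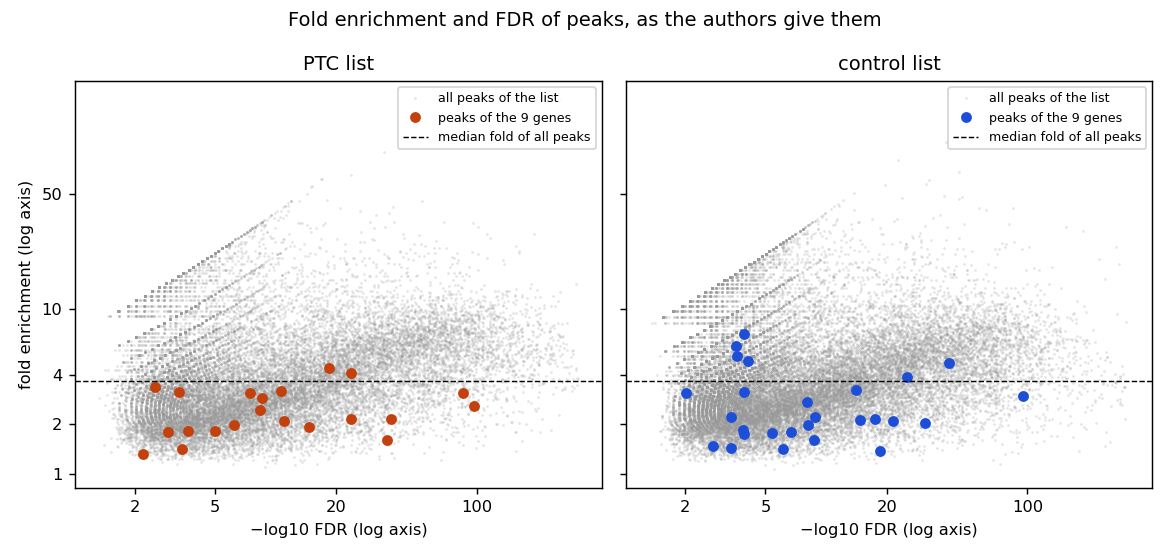
Fold enrichment against −log10 FDR of every peak, both on log axes, with the PTC list on the left and the control list on the right; grey points are all peaks, coloured points the 21 PTC and 27 control peaks of the 9 genes, and the dashed line is the median fold of the list. The coloured points run from 2.19 to 97.3 in −log10 FDR for PTC and from 2.01 to 95.3 for control, and lie mostly below the line.

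Fewer PTC than control peaks were listed for Cd3e, Cd3g, Cd247, Zap70 and Lcp2, equal numbers for Cd3d, Lck, Lat and Fyn, and more for none of the 9. Of all genes in both lists 41.6% had fewer PTC peaks and 16.0% had more. The control list is the longer one, and when it was shortened by FDR to the length of the PTC list only Cd3g, Cd247 and Lcp2, 3 of the 9, had fewer PTC peaks, with equal numbers for 6, Cd3e and Zap70 included. Of all genes in both lists at equal length 28.2% had fewer PTC peaks and 24.8% had more. The PTC peaks covered 8322 nt and the control peaks 9409 nt, of which 6797 nt were shared, 81.7% of the PTC bases and 72.2% of the control bases. A control peak overlapped 19 of 21 PTC peaks (90.5%, Clopper-Pearson 95% interval 69.6 to 98.8%), beside 78.8% of all PTC peaks. A PTC peak overlapped 19 of 27 control peaks (70.4%, interval 49.8 to 86.2%), beside 60.2% of all control peaks. These intervals cover counting error only, and peaks of 1 gene are not independent. The PTC peaks without a partner were the weaker Cd3e peak and the Fyn peak in exons 9 and 10. The strongest peaks of the lists overlapped in 8 of the 9 genes, all but Zap70, and in 80.4% of all genes in both lists.

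By the midpoint of the peak, 8 of 21 PTC peaks (38.1%) and 9 of 27 control peaks (33.3%) were in a 3' UTR, beside 48.9% of PTC peaks and 45.3% of control peaks of all protein-coding genes. Midpoints within 200 nt of a stop codon were 2 of 21 for PTC (9.52%, background 22.3%) and 5 of 27 for control (18.5%, background 17.0%). Counted by gene and by any base of a peak, Cd3d, Cd247, Lck, Lat, Lcp2 and Fyn had a peak within 200 nt of a stop codon in each list, 6 of 9, beside 78.9% of protein-coding genes in the PTC list and 77.2% in the control list. By peaks, any base within 200 nt was counted for 38.1% of PTC peaks and 33.3% of control peaks, so the order of the lists by midpoint turned. The share of all peaks by any base is not given here, and the background by midpoint cannot be set against these values. Cd3e, Cd3g and Zap70 had no peak within 200 nt of a stop codon by any base. Midpoints outside coding transcripts were 3 of 21 for PTC, in Cd3e and Lck, and 5 of 27 for control, in Cd3e, Cd3g, Cd247 and Lck, beside 4.55% of all PTC peaks and 6.88% of all control peaks of such genes. Peaks of several exon blocks were 10 of 21 for PTC (47.6%, all peaks 23.5%) and 14 of 27 for control (51.9%, all peaks 27.8%).

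**Figure D4:**
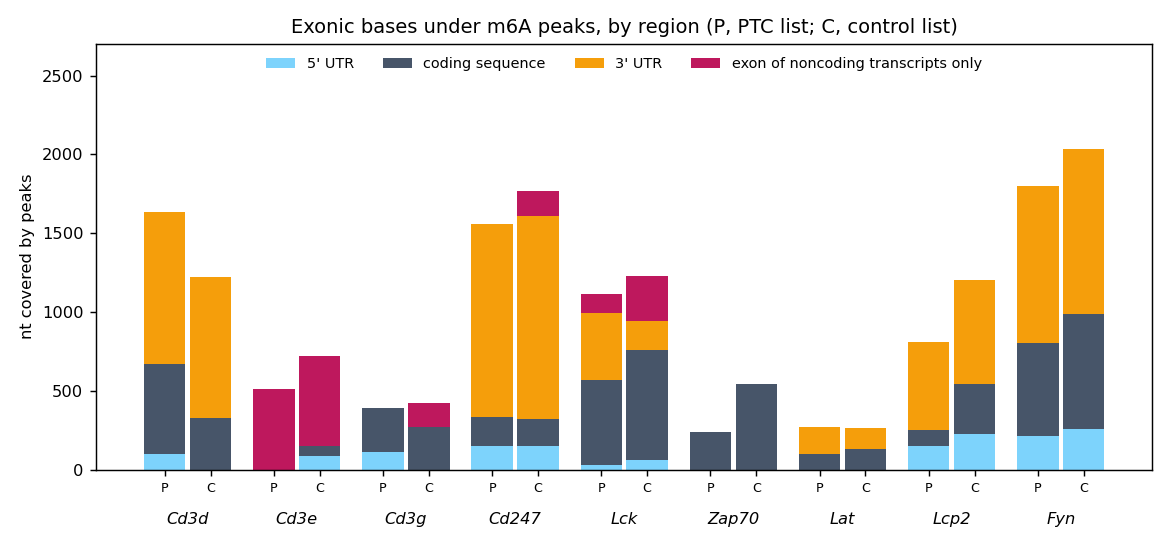
Bases under the peaks of each gene in nt, stacked by 5' UTR, coding sequence, 3' UTR and exons of noncoding transcripts, with the PTC list (P) left of the control list (C). Fyn has the most covered bases in both lists, 1796 nt for PTC and 2035 nt for control, and the Cd3e bars are mostly or wholly in exons of noncoding transcripts.

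GGACT stood in 6 of 21 PTC peaks (28.6%) and 8 of 27 control peaks (29.6%), beside 37.5% of all PTC peaks and 34.5% of all control peaks. Per 1000 nt of peak, the 9 genes had 0.961 GGACT in the PTC list and 1.28 in the control list, and all peaks had 1.33 in the PTC list and 1.24 in the control list. In windows of about 100 nt tiled over the coding genes of the lists, 9.92% held GGACT and 86.2% held DRACH. Whole peaks are wider, so their shares above cannot be set against these. Windows of that size around the peak midpoints of the 9 genes held GGACT in 4.76% for PTC and 11.1% for control. DRACH was in 85.7% of these windows for PTC and 85.2% for control, beside 88.7% around all PTC peak midpoints and 87.0% around all control peak midpoints. The motif was searched on the transcript strand alone, and each GGACT is also a DRACH.

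Other genes of the pathway were counted from a list of 44, written with earlier results of these data known. Of these, 43 were in both lists, beside 79.2% of all genes with a peak in either list. Trbc2, a constant segment of the receptor beta chain, was in the PTC list only (fold 1.43, −log10 FDR 5.36). The 44 genes had 114 PTC peaks and 165 control peaks in the lists at their deposited lengths. PTC peaks were fewer for 30 genes, more for 7 and equal in number for 7. Among all genes in both lists 41.6% had fewer PTC peaks and 16.0% had more, with the control list the longer one. Peak numbers of the 44 genes were not compared at equal list length. The median fold of the strongest peak was 4.22 for PTC and 3.99 for control in these genes, while in the 9 genes it was 2.17 for PTC and 2.04 for control, and over all genes 4.74 for PTC and 4.73 for control. Among the strongest in the PTC list were the coreceptor Cd8b1 and the Lck-inhibiting kinase Csk, both with an FDR below the smallest number that the list records, and the phosphatase Ptpn22 (−log10 FDR 300). In the control list Cd8b1 had a −log10 FDR of 271, Ptpn22 of 213 and Csk of 208.

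The label of the cells was set beside marker genes, for which a listed peak shows a transcript but not its level. Cd3e is among the T cell markers and is also 1 of the 9 genes, so its listing was known beforehand. Of 8 T cell markers 8 had a PTC peak and 7 a control peak. Over all annotated protein-coding genes the share was 41.2% for PTC and 42.6% for control. Of 6 B cell markers 5 had a peak in each list, with Cd79a in neither, and of 7 myeloid markers 5 had a peak in each list, with Adgre1 and Itgam in neither. Of 5 natural killer markers 3 had a PTC peak and 5 a control peak, and of 6 mast cell and platelet markers 2 had a PTC peak and 1 a control peak. Mast cells and platelets also use Lat, Lcp2 or Fyn. The part of natural killer or any other cells in the peaks was not tested for any of the 9 genes. The authors' deposited table gives 15855 peaks for PTC and 19420 for control, fewer than the lists hold, with 33.03% of reads in peaks for PTC and 36.07% for control.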

How the data were processed

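RNA of 2 immunoprecipitates and 2 inputs per condition was sequenced. The depth per sample is unknown, since the tables analysed here give 1 value per condition. Per the submitters' processing notes BWA 0.7.12, MACS2 2.1.0 and GRCm39 were used. Their roles are not given, nor are the peak caller's settings, strand use or any pooling of replicates. The deposited lists give per peak a p-value, a fold enrichment (a linear ratio) and scores, which are log10 p and log10 FDR, all as the authors made them. The authors' deposited summary table gives a peak count, a fragment length (another unit, nt) and a percent of reads in peaks. Of the PTC peaks 99.8% and of the control peaks 99.9% lay within the gene of the same identifier in GENCODE M21 on GRCm38, so coordinates are read as GRCm38 and none was moved to another build. The lists count starts from 0, since 85.9% of PTC and 87.2% of control block junctions match annotated ones when so read and 0 when counted from 1, and positions are printed counted from 1.

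Members were matched by gene name. They and all gene lists were chosen with earlier results of these data known. All 9 members were named with every peak, and of the other pathway genes those in 1 list only and, in each list, the 4 with the strongest peak by FDR, of which 1 gene is not reported here. An FDR below the range of the lists (80 PTC and 41 control peaks) was ranked highest. The reference transcript of a gene is the coding transcript that holds most peak bases of both lists. Exon blocks were compared on the same strand with bedtools 2.31.1 (at least 1 nt shared). The midpoint of the blocks stood for the peak, with coding sequence before 3' UTR, 5' UTR and noncoding exon. Python 3.11.15 with NumPy 2.4.6 and SciPy 1.17.1 was used, and the steps were tested on simulated data. The planned count test and leave-one-out fits were not run, as no counts per sample were analysed here.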

Additional observations from a re-analysis of the deposited data

How the results depend on the processing

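Of 56 alternative values for the 9 genes and the pathway list, 14 moved, meaning that a share left the 95% interval of the reported share or a count changed by more than 1.5 times, and the cause was not tested. The intervals are wide, and 4 of the other 42 values also changed by more than 1.5 times. A window of 100 nt around the stop codon held 4.76% of PTC peaks and 7.41% of control peaks, any base within 200 nt gave 33.3% of control peaks, and GGACT was in 1 of the 2 PTC peaks with a fold of at least 4. With a fold of at least 4, 1 of the 9 genes stayed in both lists, with 2 PTC and 5 control peaks. The overlap was then 0% of the 2 PTC peaks and 0% of the 5 control peaks, with 0 genes whose strongest peaks overlapped. Only Cd3g kept a peak in both lists at that fold, so at most 1 gene could overlap and the filter nearly fixed these values. The overlap over all peaks at that fold is not given here. The same filter gave 0% of PTC peaks near a stop codon, and 23 of 44 pathway genes in both lists. With a −log10 FDR of at least 5, 16 control peaks were left. With midpoints within 100 bp as the rule, 66.7% of PTC peaks had a control partner and strongest peaks matched in 5 genes. The shares over all peaks and all genes by this rule are not given here, so these values cannot be read as particular to the 9 genes. Counting any base within 200 nt of a stop codon gave 38.1% of PTC peaks, and the share of all peaks by this rule is not given here. Searching GGACT in about 100 nt around the midpoint gave 4.76% of PTC peaks and 11.1% of control peaks, beside 12.9% of all PTC peaks and 11.6% of all control peaks. No paired analysis was possible because the lists hold no values per sample, and for the same reason no replicate could be left out. Depth limits what an absent peak means: it does not show an absence of m6A.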
